A study of Mus musculus with 4 samples.

Results

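Spi1, Irf8, Gfi1, Klf4 and Runx1 are 5 transcription factors that direct blood progenitors into the myeloid lineages. They were taken by name from the deposited feature lists, where all 5 were found among 32285 genes. Their RNA was followed through 4 single-cell libraries of mouse bone marrow sorted for Kit and for CD45.2, the usual mark of donor cells in such grafts, and collected 10 weeks after transplantation. With 1 library each, the groups were a control and cells labelled as having Mll3, Mll4 or both deleted. Mll3 and Mll4 are the related histone methyltransferases encoded by Kmt2c and Kmt2d, which place H3K4 monomethylation at enhancers. What the groups share is the sort, the transplantation and the time. The labels name no Cre driver, no genotype of the control, no number of donor animals and no sex.

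PU.1, the protein of Spi1, is an ETS-family factor required for both myeloid and B-lymphoid cells, with high levels associated with myeloid fate and lower levels with B-cell fate. Irf8 pairs with PU.1 on DNA and favours monocytes and dendritic cells, while Gfi1 is a repressor that favours neutrophils, and Irf8 and Gfi1 oppose each other in the progenitors shared by both lineages. Klf4 acts downstream in monocyte differentiation. Runx1, with its partner Cbfb, is needed for blood stem cells to form in the embryo and later for megakaryocyte and lymphoid maturation, and it acts upstream of Spi1.

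The kept cells numbered 7146 in control, 5860 in the library labelled Mll3 deleted, 5350 in that labelled Mll4 deleted and 6917 in that labelled Mll3/4 deleted. Their median depths were 15754, 16963.5, 5142 and 9965 UMIs (unique transcript molecules counted) per cell. Levels are counts summed over cells and given as CPM, scaled to the usual common total of gene UMIs of those cells. With 1 library per group there was no test between conditions: all intervals are exact 95% intervals (Poisson for a level, conditional binomial for a ratio) and cover counting error only. Kmt2c was at 47.9, 27.2, 59.2 and 34.8 CPM in the 4 libraries and Kmt2d at 25.8, 21.6, 25.0 and 24.7 CPM, so Kmt2d gave no check of the Mll4 label at the 3′ end of the transcript, and each library is named by its label, as Mll3-labelled, Mll4-labelled or Mll3/4-labelled. Kit was at 104.6 to 189.8 CPM and the CD45 gene Ptprc at 66.3 to 216 CPM. Xist was at 0.519 CPM in the Mll4-labelled library and at 955 CPM or more in the others, an observation made after the values were seen, so sex and deletion cannot be told apart there. Any pair of libraries shared between 3 and 15 cell barcodes.

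On GRCm38, with GENCODE M21, Spi1 lies at chr2:91082390-91115756 on the plus strand and Irf8 at chr8:120736358-120756694 on the plus strand. Gfi1 lies at chr5:107716657-107726036, Klf4 at chr4:55527143-55532466 and Runx1 at chr16:92601466-92826149, all on the minus strand. RefSeq promoter windows on GRCm38.p6 matched 4 of the 5 genes (Irf8, Gfi1, Klf4 and Runx1) with 7 windows. The windows of Irf8 and Klf4 are shown because the levels of these genes were the most alike among the members and both were lower in Mll3/4-labelled B-cell progenitor-like cells. Each sequence is the 250 bases before the start site, 5′ to 3′ on the strand of the gene, from chr8:120736108-120736357 (plus) for Irf8 and chr4:55532476-55532725 (minus) for Klf4. Capitals mark the only match to a searched motif.
Irf8: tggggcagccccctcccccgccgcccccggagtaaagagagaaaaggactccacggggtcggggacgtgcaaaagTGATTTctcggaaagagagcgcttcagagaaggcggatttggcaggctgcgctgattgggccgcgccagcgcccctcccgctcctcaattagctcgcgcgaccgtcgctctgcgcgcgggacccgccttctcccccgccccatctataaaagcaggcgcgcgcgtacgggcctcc
Klf4: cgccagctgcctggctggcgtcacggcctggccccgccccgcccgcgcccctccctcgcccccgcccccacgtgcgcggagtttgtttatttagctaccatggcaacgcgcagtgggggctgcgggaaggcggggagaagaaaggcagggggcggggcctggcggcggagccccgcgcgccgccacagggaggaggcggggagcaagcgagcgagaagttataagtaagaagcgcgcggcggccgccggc

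The motifs searched on both strands were GAGGAA (the core bound by PU.1), TGTGGT (the Runx core), AAATCA (the Gfi1 core) and the interferon-stimulated response element core, a pair of GAAA half-sites spaced by any NN. The Irf8 window held AAATCA in reverse, as TGATTT, with its first base 175 bases before the start. GC content was 67.2% in the Irf8 window and 74.0% in the Klf4 window, and the Klf4 window held none of the 4 motifs. Of 32851 RefSeq windows of the same length, 23.3% held GAGGAA, 14.0% TGTGGT, 12.4% AAATCA and 2.98% the GAAA pair. Among the other windows of the members, the second of Irf8 held 1 AAATCA, the second of Runx1 held 1 GAGGAA and the rest held none. A match is a description of these letters only.

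The members divided the control marrow in different ways. Clusters were named from marker genes that exclude all 5 members, and 10 classes with at least 50 control cells were compared. Spi1 was highest in neutrophil-like cells at 352 CPM, followed by monocyte progenitor-like cells at 236 CPM and granulocyte progenitor-like cells at 232 CPM, whose intervals overlapped. It was at 172 CPM in lymphoid-primed progenitor-like cells, 151 CPM in basophil/mast-like cells and 131 CPM in HSC/MPP-like cells (stem and multipotent progenitors), each overlapping its neighbour. B-cell progenitor-like cells had 49.7 CPM, below the stem cells and above megakaryocyte-like cells at 34.2 CPM. T/NK/innate lymphoid-like cells had 26.6 CPM and erythroid progenitor-like cells were lowest at 10.5 CPM, so that Spi1 spanned 33.5-fold from its highest to its lowest class.

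Irf8 was concentrated in monocyte progenitor-like cells, at 437 CPM (417 to 458). Granulocyte progenitor-like cells had 97.2 CPM and B-cell progenitor-like cells 81.1 CPM, which overlapped, as did T/NK/innate lymphoid-like cells at 59.9 CPM and lymphoid-primed cells at 56.9 CPM. HSC/MPP-like cells had 23.2 CPM. Neutrophil-like cells, at the top of the Spi1 order, had only 3.47 CPM of Irf8, and erythroid cells had 1.26 CPM, 346-fold under the highest class.

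Gfi1 was highest in granulocyte progenitor-like cells at 82.0 CPM, then in neutrophil-like cells at 41.5 CPM. Lymphoid-primed, monocyte progenitor-like and HSC/MPP-like cells had 28.5, 25.1 and 19.7 CPM, with neighbouring intervals overlapping, and B-cell progenitor-like cells had 16.0 CPM. Levels in basophil/mast-like, megakaryocyte-like and erythroid cells were 1.68, 1.32 and 0.735 CPM. Klf4 was sparse: 18.9 CPM in monocyte progenitor-like cells, 5.79 CPM in granulocyte progenitor-like cells, 3.46 CPM in B-cell progenitor-like cells (11 counts) and under 1 CPM elsewhere, with 0 counts in basophil/mast-like and T/NK/innate lymphoid-like cells. Irf8 and Klf4 therefore shared their highest class, and Gfi1 had a different one.

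Runx1 had the flattest profile, with 11.5-fold between its highest and lowest class. It was at 452 CPM in basophil/mast-like cells and 184 CPM in megakaryocyte-like cells. Lymphoid-primed, HSC/MPP-like, B-cell progenitor-like and monocyte progenitor-like cells lay between 127 and 113 CPM with overlapping neighbours. Neutrophil-like, granulocyte progenitor-like, T/NK/innate lymphoid-like and erythroid cells followed at 61.2, 59.8, 46.6 and 39.3 CPM. Within the erythroid class, both Spi1 and Runx1 differed between clusters: the 3 control clusters had 33.3, 15.1 and 2.97 CPM of Spi1 and, in the same order, 69.1, 48.8 and 27.9 CPM of Runx1.

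**Figure D1:**
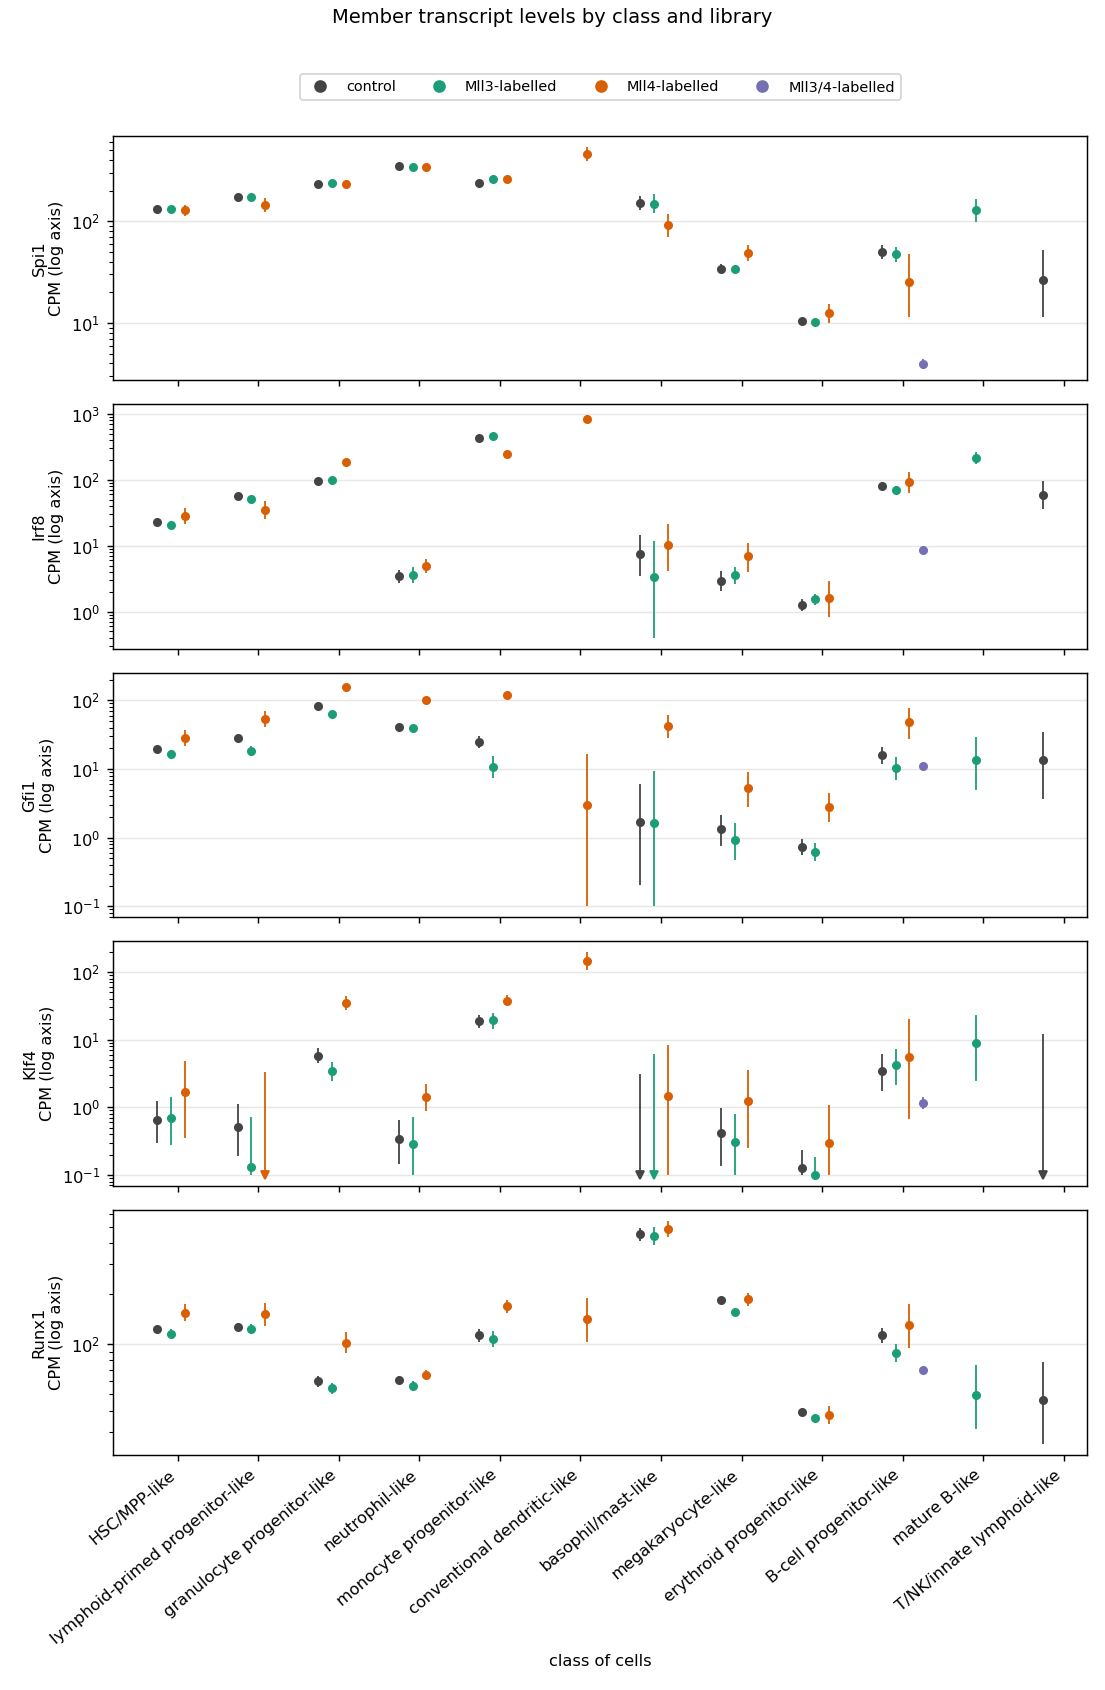
Level of each member (CPM, log axis) by cell class, with 1 point per library and exact 95% Poisson intervals; values under 0.1 CPM are drawn at 0.1 and triangles mark 0 counts. Among control classes Spi1 is highest in neutrophil-like cells at 352 CPM, Irf8 and Klf4 in monocyte progenitor-like cells at 437 and 18.9 CPM, and the Mll3/4-labelled B-cell progenitor-like cells lie far under the other libraries for Spi1 and Irf8.

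Over all kept cells, Spi1 was at 113 CPM (111 to 114) in control, 93.9 CPM in Mll3-labelled, 211 CPM in Mll4-labelled and 8.31 CPM (7.68 to 8.97) in Mll3/4-labelled cells. Irf8 was at 28.6, 27.5, 51.2 and 11.3 CPM in the same order. Gfi1 was at 17.8, 13.2, 70.2 and 11.1 CPM, Klf4 at 1.26, 1.06, 8.27 and 1.65 CPM, and Runx1 at 76.4, 66.9, 99.2 and 71.1 CPM. The Mll4-labelled library was the highest of the 4 for every member, and the Mll3/4-labelled library the lowest for Spi1, Irf8 and Gfi1. A gene is called here where log2(CPM + 1) differed by at least 2-fold and either library had at least 20 counts. In the Mll3/4-labelled library 2 of 5 members, Spi1 and Irf8, were called lower, where 11.7% of all genes were. Their log2 ratios were -3.76 (-3.88 to -3.65) and -1.34 (-1.45 to -1.23). In the Mll4-labelled library 2 of 5, Gfi1 at a log2 ratio of 1.98 and Klf4 at 2.71, were called higher, where 5.74% of all genes were. In the Mll3-labelled library 0 of 5 were called in either direction, where 0.66% of all genes were.

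The libraries differed in the cell types present. The B-cell progenitor-like share was 6.59% in control, 6.30% in the Mll3-labelled, 2.67% in the Mll4-labelled and 98.8% in the Mll3/4-labelled library, and the neutrophil-like share was 24.5%, 17.1% and 50.2% in the first 3. If each class had kept its control level, the makeup of the Mll4-labelled library would give 211 CPM of Spi1, and 211 CPM was measured. The same calculation gave 27.6 CPM of Gfi1 where 70.2 CPM was measured, 2.96 CPM of Klf4 where 8.27 CPM was measured, and 57.7 CPM of Irf8 where 51.2 CPM was measured. For the Mll3/4-labelled library it gave 52.9 CPM of Spi1 and 80.7 CPM of Irf8, against 8.31 and 11.3 CPM measured. In the Mll3-labelled library it gave 93.9 CPM of Spi1, the measured level, and 16.4 CPM of Gfi1 where 13.2 CPM was measured. The Spi1 total of the Mll4-labelled library thus equalled that of its makeup, whereas its Gfi1 and Klf4 totals lay above it and the Spi1 and Irf8 totals of the Mll3/4-labelled library far under it.

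**Figure D2:**
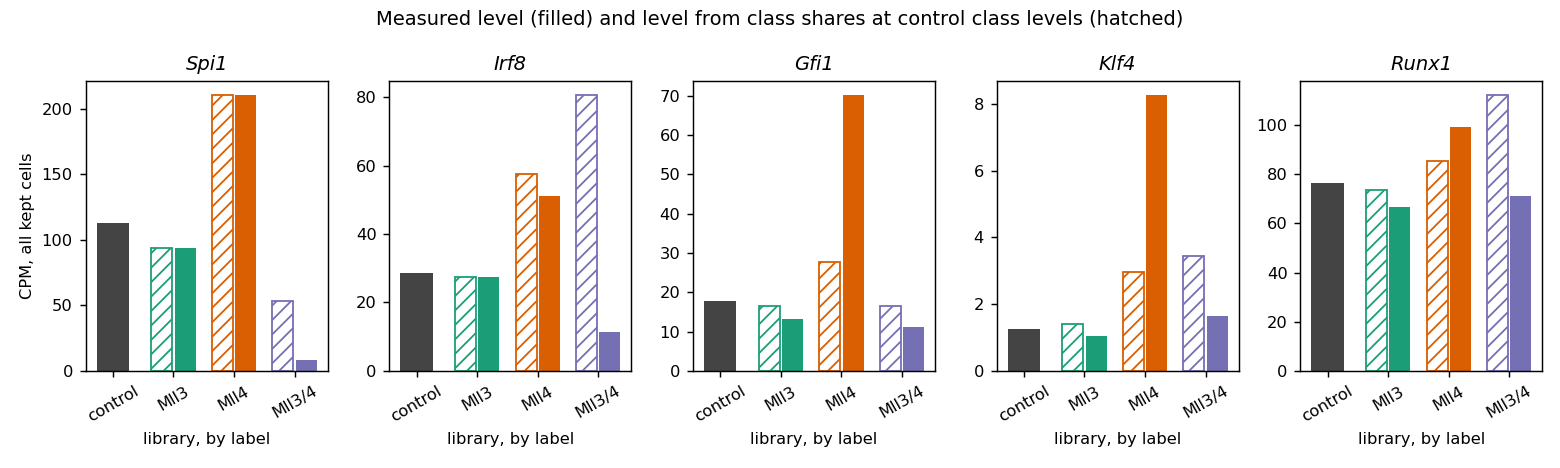
Level over all kept cells (CPM) of each member in control (1 filled bar) and in the 3 deletion-labelled libraries, with filled bars for the measured level and hatched bars for the level that the class shares of the library give at control class levels. Spi1 in the Mll4-labelled library is 211 CPM in both, while Gfi1 there is 70.2 CPM measured against 27.6 CPM from the makeup.

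Within B-cell progenitor-like cells, the only class with at least 50 Mll3/4-labelled cells, Spi1 and Irf8 were both far under control. Spi1 was at 49.7 CPM (42.2 to 58.0; 471 cells) in control, 47.6 CPM in 369 Mll3-labelled cells, 25.3 CPM (11.6 to 48.0; 9 counts) in 143 Mll4-labelled cells and 3.95 CPM (3.52 to 4.43; 6831 cells) in Mll3/4-labelled cells. Irf8 was at 81.1 CPM (71.5 to 91.6), 71.2, 92.6 and 8.55 CPM (7.91 to 9.24). The interval of the Mll3/4-labelled cells lay below those of all 3 other libraries for both genes. The log2 ratio to control was -3.65 (-3.93 to -3.36) for Spi1 and -3.25 (-3.46 to -3.03) for Irf8. Klf4 was at 3.46, 4.17, 5.61 and 1.16 CPM, with 11 counts in control and 2 in the Mll4-labelled cells, and its ratio in the Mll3/4-labelled cells was -1.58 (-2.49 to -0.52).

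Runx1 and Gfi1 were closer to control. Runx1 was at 113, 88.9, 129 and 70.1 CPM, so that Mll3/4-labelled cells stood at -0.69 (-0.84 to -0.53) against control on the log2 scale. Gfi1 was at 16.0, 10.4, 47.7 (17 counts) and 10.9 CPM, a ratio of -0.55 (-0.96 to -0.12) there. Thus 3 of 5 members, Spi1, Irf8 and Klf4, were called lower, where 7.4% of 13459 genes were. The Klf4 call, at 3.46 CPM in control and 1.16 CPM in Mll3/4-labelled cells, lay close to the 2-fold limit. That call was lost with a pseudocount of 5 CPM and with a minimum of 100 counts, while those of Spi1 and Irf8 were kept. In the Mll4-labelled B-cell progenitor-like cells 1 of 4 measured members, Gfi1, was called higher, where 8.19% of genes were, and that call rested on 17 counts. It was lost under a stricter cell filter, where the ratio on the scale used for calls went from 1.52 to 0.26, and after thinning, where it was 0.43. In the Mll3-labelled cells 0 of 4 were called, where 2.31% of genes were.

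The shares of cells with a UMI had the same order at equal depth. With each cell thinned to 2000 UMIs, 9.98% of control cells of the class held a Spi1 UMI and 0.83% of the Mll3/4-labelled cells did, and for Irf8 the shares were 14.7% and 1.33%. The share for Runx1 was 19.5% in control and 13.2% in Mll3/4-labelled cells. Control erythroid cells, a type known for little PU.1, had a Spi1 UMI in 3.84% of thinned cells, and an Irf8 UMI in 0.3%, at a median of 45911.5 UMIs before thinning, beside 4389 and 9936 UMIs in the control and Mll3/4-labelled cells of the class. The Mll3/4-labelled share for Spi1 lay below that of the erythroid cells. The erythroid class is no floor without Spi1, since its clusters differed in that gene. Whether so low a share reflects expression was not tested, and it is not read as such here. Without thinning the shares in control and Mll3/4-labelled cells were 26.5% and 3.57% for Spi1 and 34.4% and 6.91% for Irf8, and 30 and 83 cells were too shallow to thin.

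Markers of other myeloid cells were also lowest in the Mll3/4-labelled cells. By point values, the neutrophil and monocyte marker sums had the order of Irf8 across libraries, and none of the myeloid sums that of Spi1. The control, Mll3-labelled and Mll4-labelled intervals overlapped for both genes. Their order is thus not settled, and nothing is read from it. The part of such cells or their RNA in the result was not tested beyond the arithmetic given here. The summed level of 10 neutrophil markers in the class was 2444, 1805, 6355 and 81.9 CPM in the 4 libraries, with 9, 9, 9 and 10 of them detected. The 6 granulocyte progenitor markers summed to 814, 979, 870 and 63.2 CPM, all detected in each, and the 9 monocyte markers to 170, 150, 185 and 27.6 CPM. B-cell markers summed to 14831, 12603, 9794 and 12584 CPM. If the neutrophil markers in control B-cell progenitor-like cells came with Spi1 in the ratio seen in control neutrophil-like cells, they would bring 2.29 CPM of its 49.7 CPM. By the same arithmetic, the granulocyte progenitor markers would bring 5.12 CPM of Spi1 and 2.15 CPM of Irf8, and the monocyte markers 11.4 CPM of Spi1 and 21.2 CPM of the 81.1 CPM of Irf8.

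The control and Mll3/4-labelled cells of the class sat in different clusters. Control cells formed a low-depth cluster of 316 cells, with 47.6 CPM of Spi1, 101.5 CPM of Irf8 and 128.5 CPM of Runx1, and a second of 154 cells with 51.1, 67.8 and 103 CPM. The 4 Mll3/4-labelled clusters held between 231 and 4858 cells and had between 2.37 and 4.58 CPM of Spi1. Irf8 there was between 4.74 and 5.87 CPM in 3 clusters and 15.4 CPM in the one of 1355 cells. Runx1 was at 25.0 CPM in the smallest of them and between 62.6 and 79.3 CPM in the others. Against the first control cluster alone the log2 ratios were -3.59 for Spi1, -3.57 for Irf8 and -1.12 for Gfi1, and against the second alone -3.69, -2.99 and -0.00. The difference in Gfi1 was therefore present against 1 control cluster only, while those in Spi1 and Irf8 were present against both. Klf4 had 3 counts in the first control cluster and 8 in the second, and its call was lost against the first alone, where the ratio on the scale used for calls was -0.65.

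**Figure D3:**
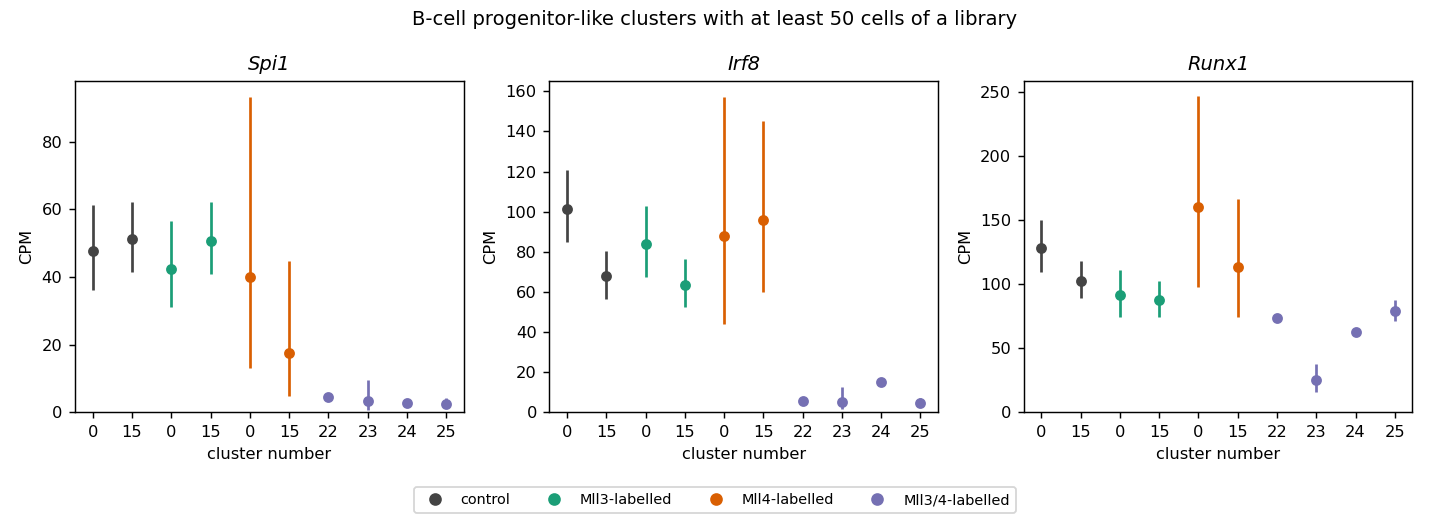
Levels (CPM) of Spi1, Irf8 and Runx1 in each cluster of B-cell progenitor-like cells with at least 50 cells, by library, with exact 95% Poisson intervals. The Mll3/4-labelled clusters lie between 2.37 and 4.58 CPM for Spi1, while the control clusters lie at 47.6 and 51.1 CPM.

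Lists of genes around the members were counted in the same cells. Of 14 genes activated by Spi1, 10 were measured and 7 were called lower, with a median log2 ratio of -2.31, from -4.56 for Lyz2 (lysozyme) and -4.08 for the integrin gene Itgam to 0.80 for Itgb2. Of the monocyte genes, 8 of 10 measured were called lower, with a median of -1.64 and the lowest value, -4.47, for Ly6c2. Of the partner factors, 6 of 12 were called lower, with a median of -1.0: Lyl1 (-5.28, from 64.4 to 0.69 CPM), Lmo2 (-4.62), Cebpe (-2.97), Cebpd (-2.13), Zeb2 (-2.09) and Cebpb (-1.37). Bcl11a (0.96) and Ikzf1 (0.81), factors used in B-cell development, had the highest values among them. Of the family relatives, 5 of 13 were called lower and none higher, with a median of -0.21. These were Irf5 (-3.30), Spib (-2.79), Irf4 (-1.65), Klf3 (-1.48) and Irf1 (-1.01), and Spib is the nearest relative of Spi1 that B cells use. By contrast, 7 of 9 measured genes repressed by Gfi1 were called higher, with a median of 1.90, among them Hoxa9 (4.15, from 3.1 to 72.7 CPM), Egr1 (3.15) and Meis1 (2.61). Hoxa9 and Meis1 are also HSC/MPP markers, whose summed level in the class was 48.7 CPM in control and 209 CPM in Mll3/4-labelled cells. Of all genes measured, 7.4% were called lower and 9.45% higher, with a median of 0.02. Ly6c2 and Cebpe are also among the monocyte and neutrophil markers, whose sums in the class were lower in Mll3/4-labelled cells, as given above. Most genes of the monocyte list are likewise among the markers used to name the monocyte progenitor-like class. No correction for free RNA was made. The part of such RNA or of other myeloid cells in these list values was not tested. The list values are on the log2(CPM + 1) scale.

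In the Mll4-labelled library the myeloid classes had more Gfi1 and nearly the control level of Spi1. In monocyte progenitor-like cells, Gfi1 was at 25.1 CPM (20.5 to 30.3) in 195 control cells, 10.8 CPM (7.38 to 15.2) in 142 Mll3-labelled cells and 119 CPM (108 to 132) in 513 Mll4-labelled cells. The 3 intervals did not overlap. Irf8 was at 437 CPM, 459 CPM and 245 CPM (228 to 263), so the Mll4-labelled cells were lowest for Irf8 and highest for Gfi1. The log2 ratios of the Mll4-labelled cells to control were 2.25 (1.94 to 2.58) for Gfi1 and -0.83 (-0.96 to -0.71) for Irf8. Spi1 was at 236, 258 and 258 CPM, a ratio of 0.13. Klf4 was at 18.9, 19.2 and 37.7 CPM, a ratio of 1.0 (0.58 to 1.43), and Runx1 at 113, 107 and 167 CPM, a ratio of 0.57 (0.39 to 0.75). On the scale used for calls, 1 of 5 members, Gfi1, was called higher, where 7.41% of genes were. The Mll3/4-labelled library had 4 cells of this class and is not compared.

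The Mll4-labelled cells of this class separated from the others when clustered more finely. At resolution 2, 192 control, 139 Mll3-labelled and 36 Mll4-labelled cells of the class stayed in 1 cluster. Another 472 Mll4-labelled cells (92.0%) fell in a cluster that kept no name, since its leading genes held more markers of another class than of the one it scored for, and that cluster had 1 control cell in all. In the shared cluster Irf8 was at 439 CPM in control and 469.6 CPM (389 to 562; 119 counts) in Mll4-labelled cells, so the lower Irf8 was not seen there. It was at 225 CPM (208 to 242) in the separate cluster. Gfi1 was at 23.9 CPM (19.4 to 29.1) in control and 51.3 CPM (27.3 to 87.7; 13 counts) in Mll4-labelled cells of the shared cluster, where the intervals overlapped, and at 126 CPM (113 to 139) in the separate one. Spi1 was at 236 and 288 CPM in the shared cluster and 255 CPM in the separate one.

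Neutrophil markers in the monocyte progenitor-like class summed to 995, 849 and 5383 CPM in the 3 libraries. At the ratio of Gfi1 to these markers in Mll4-labelled neutrophil-like cells, they would bring 1.42 CPM of the 119 CPM of Gfi1. Granulocyte progenitor-like cells are not in this arithmetic, and the part of RNA from other cells was not tested. Spread over genes, the Mll4-labelled cells were shifted as well: the median gene had a log2 ratio of 0.21 in this class, 0.25 in granulocyte progenitor-like cells and between 0.06 and 0.20 in the other classes.

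In granulocyte progenitor-like cells, all members but Spi1 were higher in the Mll4-labelled library. Spi1 was at 232 CPM in 495 control cells, 238 CPM in 556 Mll3-labelled cells and 231 CPM in 239 Mll4-labelled cells. Gfi1 was at 82.0, 63.8 and 155 CPM, and its log2 ratio in the Mll4-labelled cells was 0.92 (0.73 to 1.11). Klf4 was at 5.79, 3.42 and 34.8 CPM, a ratio of 2.59 (2.07 to 3.10), and Runx1 at 59.8, 54.3 and 102 CPM, a ratio of 0.77 (0.53 to 1.0). Irf8 was at 97.2, 98.5 and 186 CPM, a ratio of 0.94 (0.76 to 1.11). Thus 1 of 5 members, Klf4, was called higher, where 7.94% of genes were.

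This class joined a pair of clusters that differed in the members and in their share of each library. In the first, of 291 control, 287 Mll3-labelled and 56 Mll4-labelled cells, Irf8 was at 17.2, 11.6 and 8.91 CPM and Gfi1 at 98.5, 87.6 and 336 CPM. In the second, of 204, 269 and 183 cells, Irf8 was at 180.2, 166 and 223 CPM, Gfi1 at 64.9, 45.3 and 118 CPM, and Klf4 at 11.6, 5.93 and 42.1 CPM. Most Mll4-labelled cells of the class came from the second cluster and most control cells from the first. Within clusters Gfi1 was higher in Mll4-labelled cells in both, and Irf8 was higher in the second. In the first, Irf8 was low in every library and its 8.91 CPM rests on few counts in 56 cells, so no direction is read there. Spi1 was between 213 and 269.5 CPM in every library and either cluster.

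In neutrophil-like cells Gfi1 was at 41.5 CPM in 1754 control cells, 39.6 CPM in 1000 Mll3-labelled cells and 101 CPM in 2687 Mll4-labelled cells, a log2 ratio of 1.29 (1.17 to 1.41) in the latter. Spi1 was at 352, 344 and 342 CPM and Runx1 at 61.2, 56.1 and 65.6 CPM. Irf8 was at 3.47, 3.61 and 4.92 CPM and Klf4 at 0.33, 0.28 and 1.43 CPM, close to the lowest levels seen. In the Mll4-labelled cells 1 of 5 members, Gfi1, was called higher, where 2.93% of genes were. Control and Mll4-labelled cells lay in different clusters, with 40.4 and 45.4 CPM of Gfi1 in those of control and 109 and 71.5 CPM in those of the Mll4-labelled library.

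**Figure D4:**
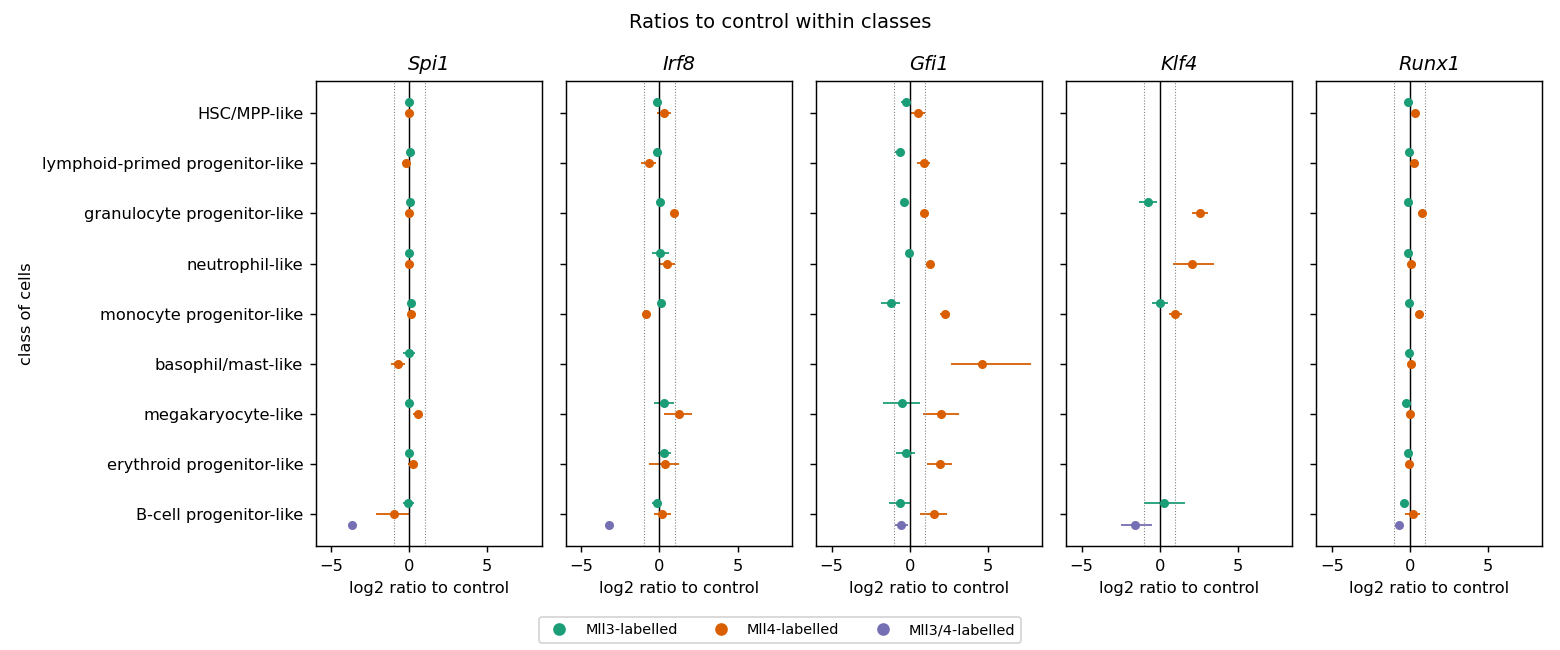
Log2 ratio of each deletion-labelled library to control for each member within a class, with exact conditional 95% intervals, for classes with at least 50 cells in both libraries and at least 20 counts in total; dotted lines mark 2-fold. Gfi1 in Mll4-labelled monocyte progenitor-like cells lies at 2.25 and Spi1 in Mll3/4-labelled B-cell progenitor-like cells at -3.65.

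The higher Gfi1 of the Mll4-labelled library was also seen outside the granulocytic and monocytic classes. In lymphoid-primed progenitor-like cells it was at 28.5 CPM in control, 18.3 CPM in Mll3-labelled and 53.5 CPM in Mll4-labelled cells, with Mll4-labelled cells at a log2 ratio of 0.91 (0.48 to 1.31). That class was named in only some of the alternative clusterings. In HSC/MPP-like cells Gfi1 was at 19.7, 16.4 and 28.6 CPM, a ratio of 0.54 (0.08 to 0.97). There the clusters differed in direction, with 4.58 CPM against 20.7 CPM in control in one and 36.4 CPM against 18.7 CPM in another. The 4.58 CPM rests on few counts in 108 Mll4-labelled cells. Basophil/mast-like cells had 1.68 CPM in control (2 counts), 1.66 CPM in Mll3-labelled (1 count) and 42.7 CPM in Mll4-labelled cells (29 counts), a ratio of 4.67 (2.68 to 7.78). That class held different cells in the libraries. At clustering resolution 2, 100 control and 80 Mll4-labelled cells fell in one cluster, with 1.84 CPM (2 counts) and 25.1 CPM (7 counts) of Gfi1. Another, led by the mast cell protease gene Cma1, held 15 control cells with no Gfi1 count and 151 Mll4-labelled cells with 55.0 CPM (22 counts). Erythroid cells had 0.735, 0.619 and 2.82 CPM, and megakaryocyte-like cells 1.32, 0.925 and 5.33 CPM. The 10 neutrophil markers were also higher in these Mll4-labelled classes, summing to 3124 to 5415 CPM against 640.4 to 1681 CPM in control. At the ratio seen in Mll4-labelled neutrophil-like cells they would bring between 0.825 and 1.43 CPM of Gfi1, the latter in basophil/mast-like cells. Such an amount is not small beside the 2.82 CPM of erythroid cells. RNA of granulocyte progenitor-like cells, which also hold Gfi1, is not in this arithmetic. The part of RNA from other cells was not tested.

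The other members had smaller differences in these classes. In HSC/MPP-like cells Spi1 was at 131.1, 131.0 and 127.8 CPM and Irf8 at 23.2, 20.8 and 28.6 CPM, and Runx1 at 122, 115 and 154 CPM. There 0 of 4 measured members were called in the Mll3-labelled cells, where 1.26% of genes were, and 0 of 4 in the Mll4-labelled cells, where 8.23% were. In lymphoid-primed cells Spi1 was at 172, 173 and 145 CPM and Irf8 at 56.9, 51.0 and 35.4 CPM, the latter a log2 ratio of -0.69 (-1.19 to -0.22) in Mll4-labelled cells. In basophil/mast-like cells Spi1 was at 151, 149 and 91.3 CPM and Runx1 at 452, 441 and 486 CPM. Megakaryocyte-like cells had 34.2, 34.0 and 49.2 CPM of Spi1 and 184, 155 and 185 CPM of Runx1. At resolution 2 a cluster that kept no name, led by H2-Eb1, held 295 Mll4-labelled and 0 control cells. The largest megakaryocyte-like cluster then held 159 Mll4-labelled cells, beside 325 at resolution 1. The largest HSC/MPP-like cluster held 33, beside 108. These classes may thus join unlike cells in the Mll4-labelled library, and their members were not followed into that cluster.

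In the Mll3-labelled library Gfi1 differed most from control: its log2 ratio was -1.22 (-1.83 to -0.63) in monocyte progenitor-like cells, -0.64 (-0.94 to -0.35) in lymphoid-primed cells and -0.36 (-0.50 to -0.22) in granulocyte progenitor-like cells, where Klf4 was at -0.76 (-1.35 to -0.18). In monocyte progenitor-like cells 1 of 5 members, Gfi1, was called lower, where 0.827% of genes were. That call was lost with a pseudocount of 5 CPM (-0.93) and with the members among the clustered genes (-0.81). After thinning to 2000 UMIs, 4 of 142 Mll3-labelled and 4 of 195 control cells of the class held a Gfi1 UMI. At 1000 UMIs these were 1 of 142 and 5 of 195, so the shares at equal depth were sparse and gave no steady direction. In granulocyte progenitor-like cells 0 of 5 were called, where 0.821% of genes were, and in neutrophil-like cells 0 of 4, where 0.605% were. Spi1 in the Mll3-labelled cells was at 258, 238 and 344 CPM in these 3 classes, beside 236, 232 and 352 CPM in control.

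Among the lists, the Mll4-labelled progenitors had several myeloid genes higher. In granulocyte progenitor-like cells 6 of 12 measured monocyte genes were called higher, with a median log2 ratio of 0.90, led by Ccr2 (2.78) and F13a1 (2.62), and the lowest was Cd14 (-0.41). Of the relatives, 3 of 12 were called higher, Klf2 (3.23), Klf6 (1.79) and Cbfb (1.38), the last encoding the partner of Runx1. Of the partner factors 2 of 15 were called higher, Cebpa (1.64) and Gata2 (1.24), and 1 lower, the late granulocyte factor Cebpe (-1.13). Of the genes activated by Spi1, 2 of 14 were called higher, Ctss (1.66) and Csf1r (1.48), with a median of 0.09, and of 7 measured genes repressed by Gfi1 only Hoxa9 (-1.22) was called, with a median of -0.17. Of all genes 7.94% were called higher and 2.98% lower in that class. Ccr2, F13a1, Ctss and Csf1r are also markers used to name the monocyte progenitor-like class, as are most genes of the monocyte list. Cebpe and Hoxa9 are markers of other classes. These counts are therefore not independent of how the classes were named. The part of the cluster mix in these list values was not tested.

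In Mll4-labelled monocyte progenitor-like cells, most of which formed a cluster of their own at resolution 2, 2 of 12 monocyte genes were called higher, Tlr2 (1.05) and Ccr2 (1.03), and 1 lower, Cd14 (-1.88), with a median of -0.45. Of the relatives 3 of 10 were called higher, again Klf2 (2.25), Klf6 (1.75) and Cbfb (1.08). Of the partner factors 3 of 14 were called higher, Gata2 (1.61), Cebpa (1.44) and Cebpe (1.22). Of 14 genes activated by Spi1, Fcer1g (-1.70) and Itgam (-1.19) were called lower, and the median was -0.04. Of 5 measured genes repressed by Gfi1, Egr1 (1.76) was called higher and Hoxa9 (-1.62) lower, with a median of -0.36. Of all genes 7.41% were called higher and 2.63% lower. Ccr2, Cebpe and Hoxa9 are also naming markers, as are most genes of the monocyte list, so these counts are not independent of the naming either.

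Irf8 and Gfi1 were rarely counted in the same cell. After thinning to 2000 UMIs, 60 of 495 control granulocyte progenitor-like cells held Irf8, 69 held Gfi1 and 2 held both, a share of 0.404% (exact binomial 0.049 to 1.45), while the product of the single shares was 1.69%. In the Mll3-labelled cells of the class 0 of 555 held both, with an exact binomial upper limit of 0.662%, and the product was 1.19%. In the Mll4-labelled cells 2 of 238 held both, 0.84% (0.102 to 3.0), where the product was 6.08%. The Mll4-labelled monocyte progenitor-like cells had both in 17 of 511, 3.33% (1.95 to 5.27), where the product was 7.28%. The interval lay under the product in each of these 4 sets, of which the granulocyte progenitor-like ones join clusters that differ in both genes. The Mll4-labelled monocyte progenitor-like set also parts at resolution 2, into clusters with 469.6 and 225 CPM of Irf8 and 51.3 and 126 CPM of Gfi1. After thinning to 1000 UMIs the interval lay under the product only for the Mll4-labelled sets. For granulocyte progenitor-like cells the interval was then 0.005 to 1.12% in control, beside a product of 0.509%, and 0 to 0.661% in Mll3-labelled cells, beside 0.569%. In control monocyte progenitor-like cells 2 of 195 held both (1.03%), beside a product of 1.18%. B-cell progenitor-like control cells went the other way, with 8 of 441 (1.81%, 0.786 to 3.54) beside 0.702%, and their 2 clusters differ in both genes. At 1000 UMIs 0 of 471 of them held both. Other shares above their product at 2000 UMIs, with intervals that held it, included control lymphoid-primed cells (0.852% beside 0.439%) and Mll4-labelled neutrophil-like cells (0.264% beside 0.147%).

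**Figure D5:**
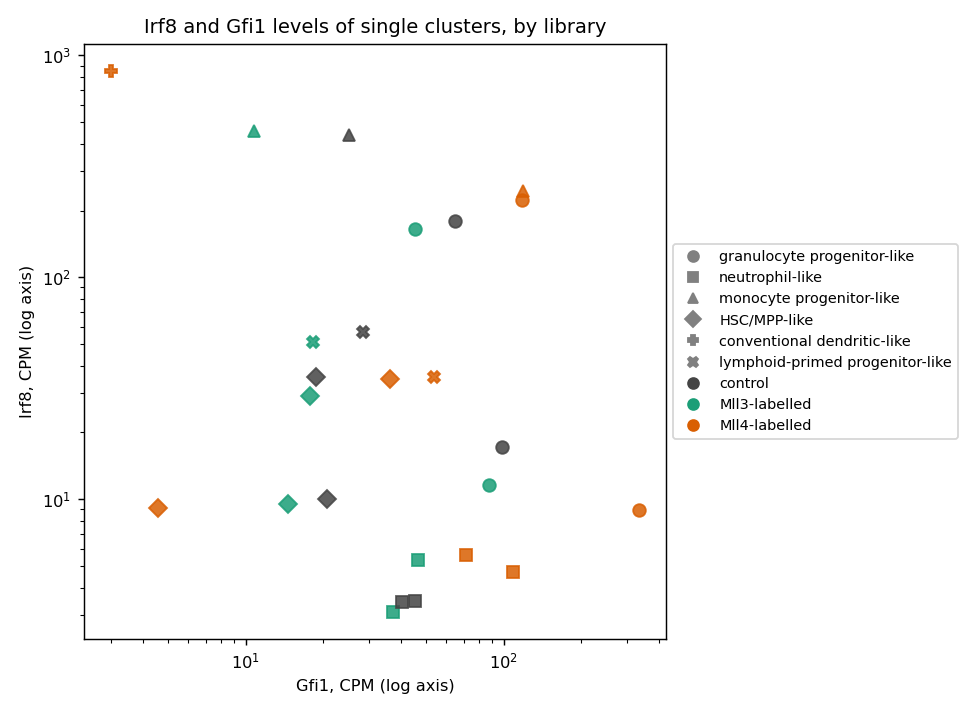
Irf8 against Gfi1 (CPM, log axes) with 1 point per cluster and library of at least 50 cells, for 6 classes of control, Mll3-labelled and Mll4-labelled cells. Monocyte progenitor-like cells lie at 437 CPM of Irf8 and 25.1 CPM of Gfi1 in control and at 245 and 119 CPM in the Mll4-labelled library, and the granulocytic clusters lie at high Gfi1 with a wide range of Irf8.

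Surface antibodies group cells without use of their transcripts. Control cells above the CD11b threshold (1898, 26.6%) had 339.9 CPM of Spi1, 44.0 CPM of Gfi1 and 7.41 CPM of Irf8, against 66.4, 12.5 and 32.9 CPM below it, so Spi1 and Gfi1 were higher and Irf8 lower above CD11b. Cells above the threshold for CD16/32, the Fc receptors of granulocyte and monocyte progenitors, had 279.9 CPM of Spi1, 66.1 CPM of Irf8, 46.3 CPM of Gfi1 and 3.44 CPM of Klf4, against 46.6, 13.8, 6.51 and 0.400 CPM, so all 4 genes were higher above CD16/32. Runx1 was at 77.6 and 75.9 CPM on either side. Cells above the threshold for B220, a B-lineage surface marker, had 74.9 CPM of Irf8 against 27.3 CPM below it and 77.5 CPM of Spi1 against 114 CPM.

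In the Mll3/4-labelled library, 69 cells (0.998%) lay above the CD16/32 threshold. They had 234 CPM of Spi1, 157 CPM of Irf8 and 30.9 CPM of Klf4, against 4.48, 8.84 and 1.15 CPM in the rest. The 38 cells above CD11b had 283 CPM of Spi1 and no Irf8 count. Control cells above the same thresholds had 279.9 and 339.9 CPM of Spi1. In the same library 964 cells (13.9%) lay above the B220 threshold, with 5.49 CPM of Spi1 and 14.8 CPM of Irf8. In the Mll4-labelled library Gfi1 was at 100.3 CPM above CD11b and 46.0 CPM below it, both over the control values of 44.0 and 12.5 CPM.

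The genes with the most similar levels were found over 31 class-by-library sums of 12 classes, which share libraries, among 8188 genes, by Pearson r of log2(CPM + 1). They were Alox5ap (0.93), F630028O10Rik (0.92) and Clec12a (0.91) for Spi1, Ly86 (0.93), BC035044 (0.89) and Pkib (0.89) for Irf8, and Tspan5 (0.84), Rhob (0.83) and Slc31a2 (0.80) for Gfi1. For Klf4 they were Ly86 (0.91), Pip4p1 (0.86) and Tifab (0.85), and for Runx1 Rnf2 (0.83), Fcer1a (0.82) and Osbpl8 (0.82). Among the members, Irf8 and Klf4 were most alike (0.82), followed by Gfi1 and Spi1 (0.54), Irf8 and Spi1 (0.47) and Irf8 and Gfi1 (0.45). Runx1 had r between -0.07 and 0.26 with the other members.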

How the data were processed

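Transcripts and barcoded antibodies were measured together in single cells with the 10x 3′ version 3.1 kit, as the labels' protocols say. UMI counts, not normalized, are what the authors deposited, made with Cell Ranger 6.1.2 per the file headers, on mm10 per the submitters' processing notes. They cover 32285 genes and 15 antibody features. The labels do not say what the hashtags mark.

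Barcodes needed 500 or more genes, 1000 or more gene UMIs and no more than 10% mitochondrial UMIs, and the highest Scrublet doublet scores (expected rate 0.06) were removed at 0.8% per 1000 barcodes, 5.29% to 8.01% of cells per library. The filter took out 22.3%, 33.2%, 14.7% and 10.6% of barcodes in control, Mll3-, Mll4- and Mll3/4-labelled libraries, and the kept gene UMIs were 153615605, 135974003, 32777830 and 77657652. The libraries were clustered together with scanpy 1.11.5 (2000 variable genes, 30 principal components, 15 neighbours, Leiden resolution 1, leidenalg 0.10.2), leaving out the 5 members, and clusters were named from marker genes. No correction for free RNA was made. CPM, ratios and intervals were computed with numpy 2.4.6 and scipy 1.17.1. The intervals were tested on simulated data with counting error only, which cannot show how they hold for spread between cells or libraries. Antibody thresholds were 52 counts for CD11b, 58 for CD16/32 and 38 for B220.

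The named genes are the members, the 3 genes most like each, and from each list the genes with the highest and lowest values and those counted. The members, lists and markers were chosen with earlier results of these data known. Alternatives tried were other filters, doublet settings, pseudocounts, count minima, depths and clusterings. The result of 1 list gene is not reported here.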

Additional observations from a re-analysis of the deposited data

Results flagged for a closer look

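Irf8 in the Mll4-labelled library went in opposite directions in neighbouring classes. Against control, its log2 ratio was 0.94 (97.2 to 186 CPM) in granulocyte progenitor-like cells and -0.83 (437 to 245 CPM) in monocyte progenitor-like cells. The difference between the classes was not tested, since each class has 1 library per group. The granulocyte progenitor-like class joins a cluster low in Irf8 (17.2 CPM in control), which holds 291 control and 56 Mll4-labelled cells, and a cluster high in Irf8 (180.2 CPM in control), which holds 204 and 183. The part of this mix in the ratio was not tested beyond the values within the clusters, which were 8.91 CPM in the first and 223 CPM in the second for Mll4-labelled cells. The 8.91 CPM rests on few counts in 56 cells, so no direction is read in the first cluster. At clustering resolution 2 the monocyte progenitor-like class parts as well: its 36 Mll4-labelled cells that shared a cluster with control had 469.6 CPM of Irf8, and the 472 in a separate cluster had 225 CPM.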

How the results depend on the processing

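No paired analysis was possible because each group has 1 library. The counts of members called kept within 1.5 times under most alternatives. For the Mll4-labelled B-cell progenitor-like cells the count of 1 became 2 when centred on the median gene and 0 with a minimum of 100 counts. For Mll4-labelled granulocyte progenitor-like cells the count of 1 became 2 without doublet removal, with the mean of cell shares, at resolution 2 and with another seed, and 0 with a minimum of 100 counts. For Mll4-labelled monocyte progenitor-like cells it became 2 without doublet removal, when centred on the median gene and with the members clustered. For Mll3-labelled monocyte progenitor-like cells it became 0 with the members clustered and with a pseudocount of 5 CPM. The share of control neutrophil-like cells with both Irf8 and Gfi1 was 0.0571% and became 0 at 1000 UMIs. The list medians that turned sign were those of genes repressed by Gfi1 in Mll4-labelled B-cell progenitor-like cells (-0.61 under a stricter cell filter) and of monocyte genes in Mll4-labelled basophil/mast-like cells (-0.73 with a minimum of 100 counts). The log2(CPM + 1) ratio of Gfi1 in Mll4-labelled B-cell progenitor-like cells was 1.52 and became 0.26 under the stricter cell filter and 0.43 after thinning. Thinned cells formed no monocyte progenitor-like class, and at resolution 2 that class held 36 Mll4-labelled cells, under the minimum of 50, so these alternatives gave no value there. No lymphoid-primed progenitor-like class was named with another seed, without doublet removal, under the stricter cell filter or after thinning. Its values therefore rest on the main clustering, resolution 2 and the clustering with the members. Using 1 control cluster at a time and the levels within clusters at resolution 2 were chosen after seeing the data. Depth limits Klf4 in every class but the monocytic and granulocytic ones, and Gfi1 where counts are under 20.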

Other observations

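Classes with at least 50 cells in only 1 library belong in no comparison. Conventional dendritic-like cells of the Mll4-labelled library (107 cells) had 461 CPM of Spi1, 850.0 CPM of Irf8, 147 CPM of Klf4 and 141 CPM of Runx1, with 1 count of Gfi1. The levels of Spi1, Irf8 and Klf4 were above those of every class compared. Mature B-like cells of the Mll3-labelled library (145 cells) had 128 CPM of Spi1, 218 CPM of Irf8 and 49.5 CPM of Runx1.

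Cells positive for a single hashtag gave values for each hashtag, whose meaning the labels do not give. In Mll3/4-labelled B-cell progenitor-like cells Spi1 was at 5.22 CPM in 3673 cells with the first hashtag and 2.58 CPM in 2980 cells with the second, against 45.2 and 53.3 CPM in control. Irf8 there was at 7.51 and 9.87 CPM, against 96.3 and 69.9 CPM in control. In monocyte progenitor-like cells Gfi1 was at 115 and 129 CPM in the Mll4-labelled library and at 28.7 and 22.4 CPM in control. In neutrophil-like cells it was at 94.3 and 105 CPM, against 45.1 and 37.6 CPM.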
